A study of Rattus norvegicus with 12 samples.

Results

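The left ventricular free wall of rats carrying an aorto-caval shunt was compared with that of sham-operated rats, on 6 of the 12 one-colour Affymetrix arrays of the study. The members of the comparison are the 3 arrays labelled left ventricle shunt and the 3 labelled left ventricle sham, and 31042 probe sets that are not manufacturer's controls. The shunt is a surgical opening between aorta and vena cava, through which blood returns to the heart without passing the tissues. All animals were male Sprague-Dawley rats, labelled with a weight of 225 to 275 g and studied 28 days after the shunt or sham operation, and the labels name no transgene or drug. Each array held RNA from 1 pool of 2 ventricular tissues, so that an array is a mean over animals and the spread between single rats was not measured. The other 6 arrays hold left atrial tissue under the same operations. They entered the fit and are cited here only as a comparison.

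A shunt imposes a volume load, in which the ventricle fills with more blood at each beat, and the wall enlarges by lengthening its muscle cells. Loaded ventricular myocytes are known to re-express genes of the fetal heart, among them the natriuretic peptides, which act on kidney and vessels to lower blood volume, and the slow myosin heavy chain. Load is also known to alter the extracellular matrix, calcium handling, fuel use and the immune cells of the wall. The arrays measured bulk tissue, so a change in the number of cells of a type and a change of RNA per cell cannot be told apart.

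The tissue labels were checked against chamber markers. Myl2, the ventricular myosin light chain, lay between log2 values of 13.61 and 13.70 on the ventricular arrays, against 4.16 to 5.67 on the atrial ones. Irx4, a ventricular transcription factor, lay between 7.41 and 7.62, against 2.95 to 3.58. The atrial genes Sln, Myl4 and Mybphl lay between 3.73 and 5.52 on the ventricular arrays and at 10.80 or above on the atrial arrays. Across probe sets the ventricular shunt arrays correlated with each other at 0.993 to 0.996, the sham arrays at 0.996, and shunt with sham arrays at 0.992 to 0.995. Shunt array 2 stood farthest from its group, with a root mean square deviation of 0.163, against 0.124 and 0.122 on the other shunt arrays and 0.102 to 0.114 on the sham arrays. RNA quality was read from the array's control genes, as the 3′ signal minus the 5′ signal. The hexokinase difference was 1.23, 0.824 and 1.18 for shunt pools 1 to 3, against 0.842, 1.02 and 0.895 for sham pools 1 to 3. The beta-actin difference was 1.17, 1.08 and 1.02 for shunt pools, against 0.956, 1.01 and 1.01 for sham pools. Every shunt pool thus lay above every sham pool in beta-actin, and its part in the results was not tested. The GAPDH difference was 0.392, 0.387 and 0.355 in shunt and 0.345, 0.38 and 0.372 in sham pools, with overlap.

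With 3 arrays in each group, few probe sets passed the threshold. Of 18625 probe sets tested, 20 passed an adjusted p of 0.05, which is 0.107%, with 11 higher (0.0591%) and 9 lower (0.0483%) after the shunt. In all 20 the arrays of the groups did not overlap, as in 20.8% of all probe sets tested. A further quantile normalization gave 38, of which 16 were higher and 22 lower. The 20 belonged to 16 named genes, 8 higher and 8 lower, and to 3 probe sets without a name here. By the probe set of highest mean, which represents a gene below, 12 of 10606 genes passed (0.113%), 6 in each direction (0.0566%). The median difference over all genes was 0.00 and the median absolute difference 0.09 on the log2 scale, and 95% of genes lay under 0.32 in size. At an adjusted p of 0.10 the count was 205 probe sets (1.1%), 95 higher (0.51%) and 110 lower (0.591%), and 14.7% had an unadjusted p under 0.05. The count was 0 without sham array 1, sham array 3 or shunt array 3 (limma, with 2296, 2023 and 2296 probe sets at an unadjusted p under 0.05), 5 and 45 without shunt arrays 1 and 2, and 9 without sham array 2. It was 22, 12 and 118 without atrial shunt arrays 1, 2 and 3, and 7, 6 and 5 without atrial sham arrays 1, 2 and 3. Each of the 20 kept its call in only 2 to 9 of these 12 fits, while its direction was kept in all of them. In the 6 fits without a ventricular array, Myh13, Txn2, Mcf2l, Apeg3, Bex1, RT1-Da, RT1-Bb and probe set 1380768_at kept it in 0. With only the ventricular arrays fitted, 10 passed and 6 of the 20 were among them, which read Ogn (1383263_at), Slc24a3, Wfdc1, Cacng6, RT1-Da and RT1-Bb (1371033_at). With the hexokinase difference as a covariate all 20 passed, among 215.

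The genes named below are all those with a passing probe set, the nearest that did not pass, 10 fixed load markers and, for each gene list, its members of smallest p. Of the 37 list medians, 31 turned or moved by over 1.5 times when some single array was left out. The 6 that did not were those of class II, macrophage, chemokine, endothelial, epicardial and fatty acid genes.

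**Figure D1:**
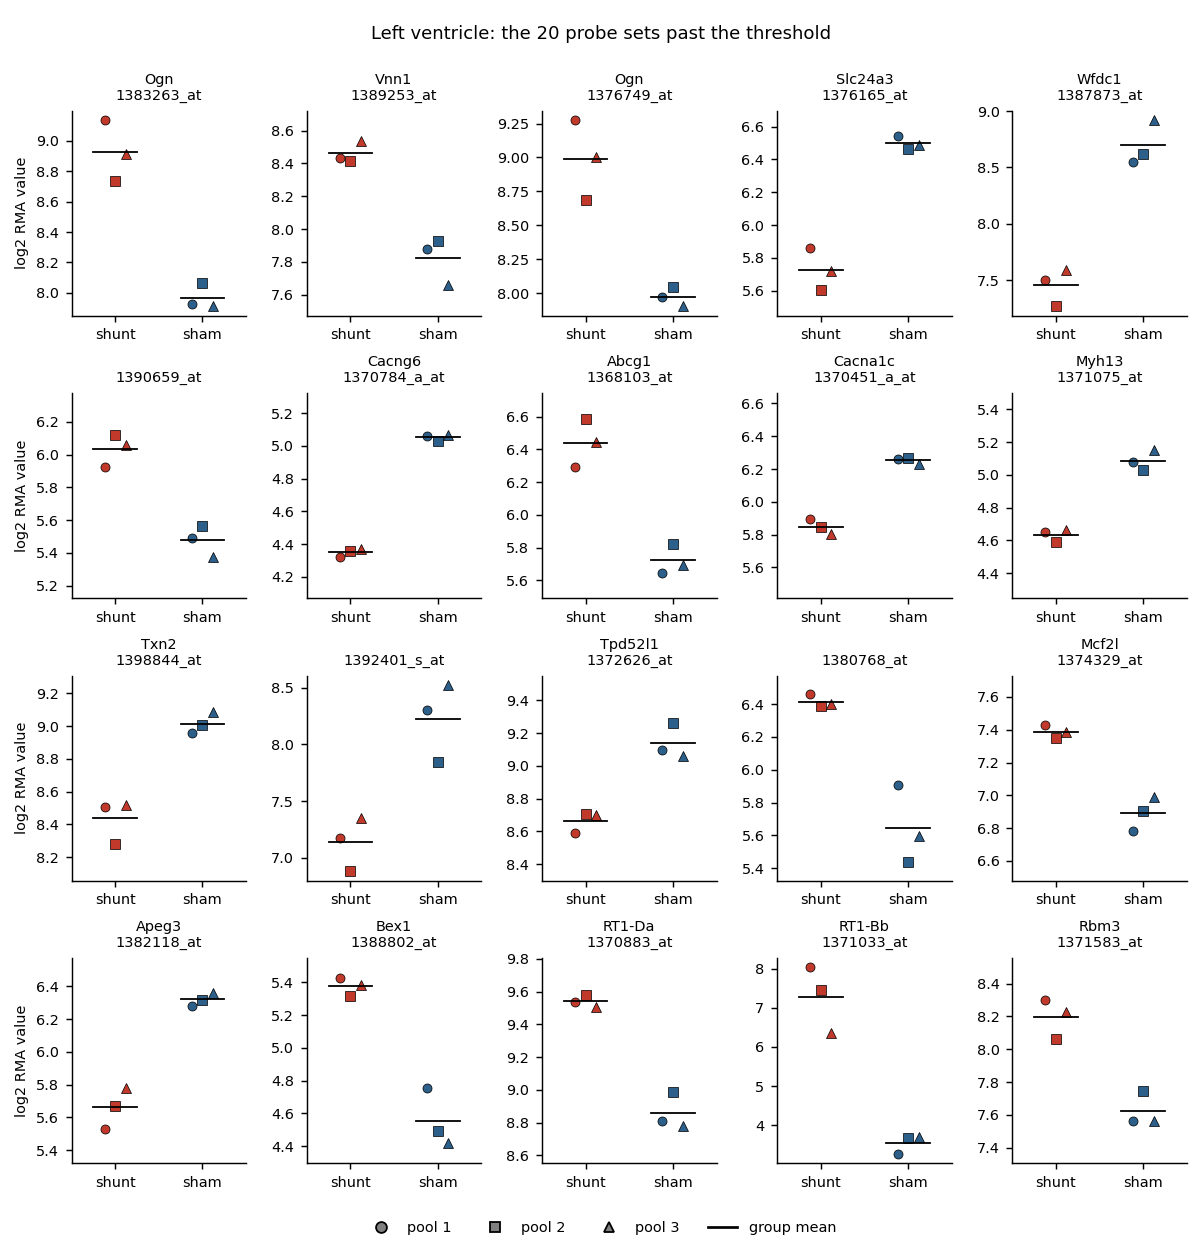
Log2 RMA values (y axis) of the 20 probe sets past the threshold in the 3 shunt arrays (left, red) and the 3 sham arrays (right, blue) of left ventricle, with a marker shape for each pool and a bar for the group mean. The arrays of the groups do not overlap in any panel, and the scale of RT1-Bb is far wider than that of the others.

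Among matrix genes, Ogn and Wfdc1 changed in opposite directions. Ogn encodes osteoglycin, a small leucine-rich proteoglycan that binds collagen fibrils. One of its probe sets, 1383263_at, had 9.14, 8.73 and 8.92 in shunt ventricles 1, 2 and 3, against 7.93, 8.06 and 7.91 in sham ventricles. Every shunt array lay above every sham array, and the transcript read by this probe set rose by 0.96 ± 0.10 on the log2 scale (± gives the SE, with n = 3 in each group, adjusted p = 0.0119 by limma), or 1.95-fold. A second probe set, 1376749_at, rose by 1.02 ± 0.12 (adjusted p = 0.0119). The other tested probe sets of Ogn did not follow. The difference was 0.24 ± 0.07 for 1390450_a_at (adjusted p = 0.154) and 0.04 ± 0.06 for 1385248_a_at (adjusted p = 0.776), at 9.29, 9.29 and 9.38 in shunt and 9.24, 9.26 and 9.33 in sham ventricles. The probe sets of Ogn therefore disagreed, and which transcript each one reads was not tested.

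Wfdc1 encodes a secreted protein with a whey acidic protein domain, the fold of a family of protease inhibitors. It had 7.51, 7.27 and 7.59 in shunt ventricles, against 8.55, 8.62 and 8.92 in sham ventricles. It fell by 1.24 (SE 0.16, adjusted p = 0.0209) and thus to 0.423 of the sham level, with no overlap between the groups. Slpi, a secreted inhibitor of the same fold family, differed by 0.64 ± 0.13 without passing (adjusted p = 0.0806), at 6.99, 6.69 and 6.95 in shunt and 6.01, 6.36 and 6.32 in sham ventricles. Of 37 measured matrix proteases and inhibitors, Wfdc1 alone passed, and Ctsk, a collagen-degrading cathepsin, differed by 0.35 ± 0.10 (adjusted p = 0.146).

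The other matrix genes lay mostly above 0 without a member past the threshold. Of 30 collagens and their processing enzymes, 0 passed, 22 had a difference above 0 (50.0% of all genes had), and 10 had shunt arrays all above the sham arrays while 0 had the reverse. Non-overlapping arrays were found in 21.4% of all genes tested, with 11.0% higher and 10.5% lower. The median of the collagen list was 0.12, against 0.00 for all genes. Col4a2, a chain of basement membrane collagen, had 10.07, 10.29 and 10.27 in shunt and 9.95, 9.94 and 9.83 in sham ventricles, a difference of 0.30 ± 0.07 (adjusted p = 0.113). Col4a5, another basement membrane chain, differed by 0.39 ± 0.12 (adjusted p = 0.179), and Plod2, which hydroxylates collagen lysines, by 0.40 ± 0.12 (adjusted p = 0.19). The main chains of fibrillar collagen, Col1a1 and Col3a1, differed by 0.00 ± 0.13 and 0.03 ± 0.08, and each changed sign when shunt array 2 was left out. Of 38 small leucine-rich proteoglycans and matricellular proteins, 0 passed by the representing probe set and 29 lay above 0, with a median of 0.11. The matricellular Ccn5 differed by 0.71 ± 0.17 (adjusted p = 0.11), fibronectin, Fn1, by 0.31 ± 0.10 (adjusted p = 0.188), and Aspn, an Ogn relative, by 0.42 ± 0.15 (adjusted p = 0.23). The sham values of Ccn5, 3.996, 3.39 and 3.94, lay below the filter on low values, 4.01, so the size of its difference is uncertain. Both medians moved with single arrays and with the hexokinase covariate, which put them at 0.20 and 0.18. Against the sham mean, the collagen list stood at 0.05, 0.24 and 0.02 in shunt pools 1, 2 and 3, and its median was 0.03 without array 2, as that of the proteoglycan list was 0.04, against 0.17 without shunt array 1. The fibroblast markers, 18 measured, had a median of 0.03 with 0 past the threshold. Their mean level was 7.81 to 8.23 in shunt and 7.92 to 8.002 in sham ventricles, with shunt array 2 the highest. This mean includes the marker Clec3b, at 4.38, 6.76 and 3.32 in shunt and 6.49, 6.86 and 6.67 in sham ventricles. Clec3b lowered the mean level of shunt pools 1 and 3. The part of the fibroblast markers in the matrix result was not tested.

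**Figure D2:**
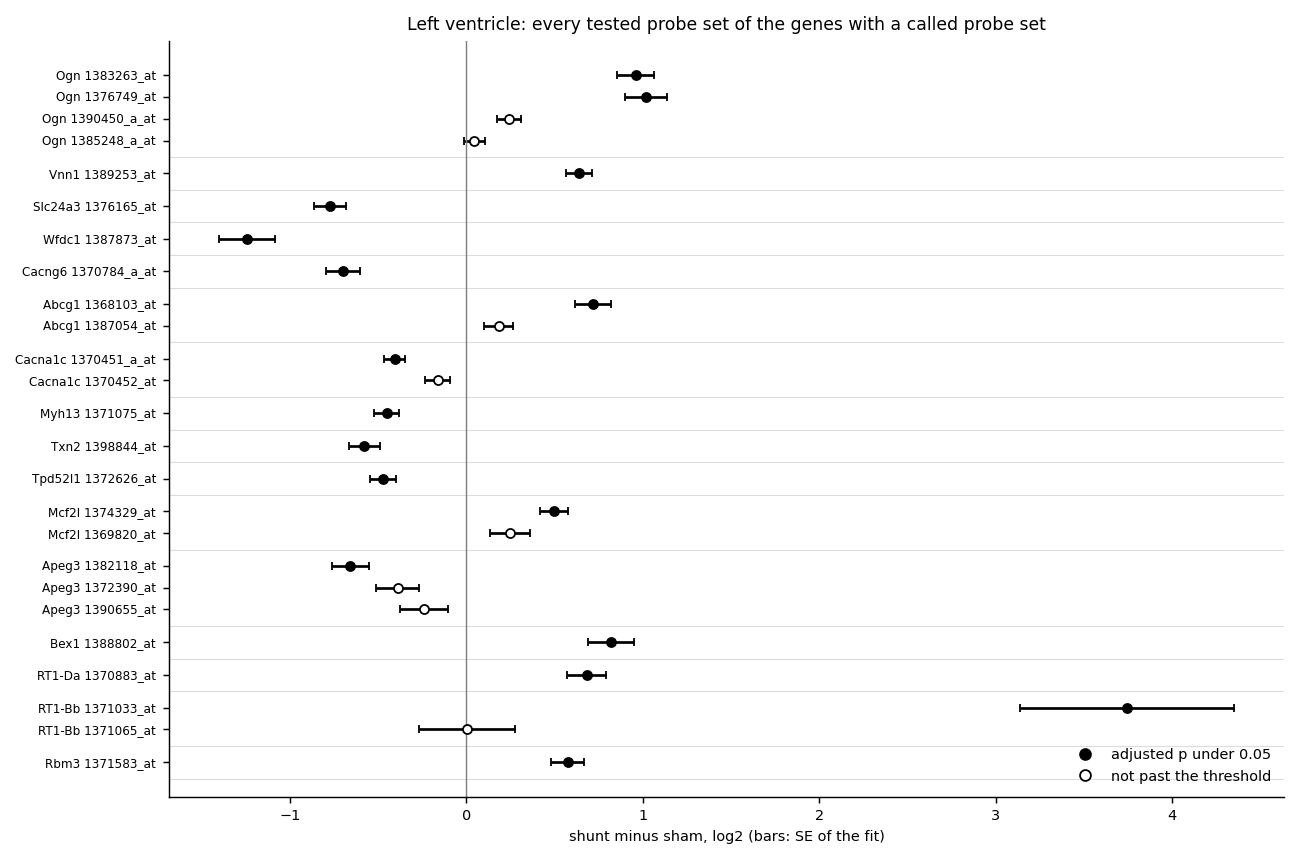
Shunt minus sham difference in left ventricle (x axis, log2; bars are the SE of the fit) for every tested probe set of the 16 genes with a probe set past the threshold, filled where the adjusted p was under 0.05. The probe sets of Ogn, Abcg1, Cacna1c, Mcf2l, Apeg3 and RT1-Bb differ in size within their gene.

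Genes of class II antigen presentation had differences above 0 in all 11 measured members, of which RT1-Da passed. Class II molecules are heterodimers on antigen-presenting cells, such as macrophages and dendritic cells, that show peptides to helper T cells. In the rat they are encoded by the RT1-D and RT1-B loci, while RT1-DM exchanges the peptide and Cd74, the invariant chain, guards the groove. Class II genes are known to differ between individuals, and Sprague-Dawley rats are outbred. The promoters of class II genes are known to share a set of boxes, among them the Y box bound by NF-Y. To place the members, the 120 bases from -150 to -31 before the annotated start are printed 5′ to 3′ on the gene's strand for the 4 chains with a RefSeq promoter (GRCr8), with the Y box letters searched here, CTGATTGG, in capitals. They lie at chr20:4515265-4515384 (plus strand) for RT1-Da, chr20:4576907-4577026 (plus) for RT1-Ba, chr20:4560193-4560312 (minus) for RT1-Db1 and chr20:4604149-4604268 (minus) for RT1-Bb.
RT1-Da: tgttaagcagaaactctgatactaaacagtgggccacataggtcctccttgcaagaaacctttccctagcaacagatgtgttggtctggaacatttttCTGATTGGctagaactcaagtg
RT1-Ba: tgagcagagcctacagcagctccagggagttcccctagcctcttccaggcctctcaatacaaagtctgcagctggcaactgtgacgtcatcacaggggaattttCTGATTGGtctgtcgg
RT1-Db1: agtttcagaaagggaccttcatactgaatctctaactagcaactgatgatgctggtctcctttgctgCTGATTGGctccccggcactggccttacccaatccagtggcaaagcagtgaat
RT1-Bb: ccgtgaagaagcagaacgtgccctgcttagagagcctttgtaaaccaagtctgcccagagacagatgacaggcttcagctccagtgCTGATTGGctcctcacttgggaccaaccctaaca
The letters began at -52, -46, -83 and -64 in that order of genes. Searched on both strands over 300 bases from -250 to 50, they occurred in 4 of 6 promoters of class II chains, RT1-DM and Cd74, and in 1172 of 33469 RefSeq promoters (3.50%). The core letters of another box, the X box, AGCAAC, were searched in the same way. They occurred in 3 of the 6, RT1-Da, RT1-Db1 and Cd74, and in 4909 of the 33469 (14.7%). In RT1-Ba and RT1-Bb they were absent. A match of letters is a description only.

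RT1-Da, the alpha chain of the RT1-D molecule, had 9.54, 9.58 and 9.50 in shunt ventricles, against 8.81, 8.99 and 8.78 in sham ventricles. It rose by 0.68 ± 0.11 (adjusted p = 0.0487), or 1.60-fold, and the shunt arrays lay within 0.08 of each other. RT1-Ba, the alpha chain of RT1-B, stood at 7.55, 7.55 and 7.56 in shunt and 6.85, 7.16 and 6.42 in sham ventricles, a difference of 0.74 ± 0.16 (adjusted p = 0.0818). RT1-DMb differed by 0.77 ± 0.17 (adjusted p = 0.092), with 8.31, 8.12 and 8.14 in shunt and 7.29, 7.68 and 7.28 in sham ventricles. RT1-Db1, the beta chain of RT1-D, differed by 0.77 ± 0.23 (adjusted p = 0.175), at 7.63, 7.97 and 7.71 in shunt and 7.06, 7.08 and 6.87 in sham ventricles. In each of these genes the groups did not overlap, but only RT1-Da passed. RT1-DMa and Cd74 moved less, with differences of 0.26 ± 0.10 (adjusted p = 0.288) and 0.12 ± 0.09 (adjusted p = 0.574).

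Of 11 measured members of the class II list, 1 passed and all had a difference above 0, as 50.0% of all genes had. In 6 the shunt arrays lay all above the sham arrays, as in 11.0% of all genes. The median was 0.18, and 0.29 with the hexokinase covariate. The median was 0.13 to 0.25 when 1 array was left out, and lowest without shunt array 2. The mean level of the list was 7.87, 7.91 and 7.87 in shunt pools, against 7.52, 7.65 and 7.44 in sham pools. In this mean, each shunt pool lay above each sham pool. In the left atrium RT1-Da was 0.62 higher after the shunt (adjusted p = 0.0218), and the difference between the chambers did not pass (adjusted p = 0.99).

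RT1-Bb, the beta chain of RT1-B, gave a wide step in 1 of its 2 probe sets. Its probe set 1371033_at had 8.03, 7.47 and 6.36 in shunt ventricles, against 3.27, 3.66 and 3.69 in sham ventricles. The fitted difference was 3.74 ± 0.60 (adjusted p = 0.0487). The sham values of both chambers lay below 4.01, the filter on low values, so the probe set was tested only through its shunt arrays, and the size of its rise is uncertain. The atrial shunt arrays 1, 2 and 3 read 3.68, 6.75 and 5.55 with this probe set, and the atrial sham arrays 3.32, 3.34 and 3.36. Within the atrial shunt group the signal was thus close to sham in 1 pool and far above it in the other 2. The second probe set of RT1-Bb, 1371065_at, showed no such step, with 6.81, 6.45 and 6.86 in shunt ventricles and 6.78, 6.96 and 6.36 in sham ventricles, a difference of 0.00 ± 0.27. A pair of probe sets without a name here, chosen after their values were seen, were also higher in every ventricular shunt array without passing. Probe set 1388071_x_at had 10.71, 10.98 and 10.35 in shunt and 8.27, 7.98 and 8.26 in sham ventricles (2.51, adjusted p = 0.0748), with 8.43, 11.18 and 9.59 in shunt and 7.98, 7.53 and 7.71 in sham atria. Probe set 1393108_at had 5.58, 5.20 and 4.94 in shunt and 3.19, 3.07 and 3.46 in sham ventricles (2.002, adjusted p = 0.0795), with 3.46, 5.73 and 4.38 in shunt and 3.11, 3.14 and 3.25 in sham atria. The sham values of 1393108_at in both chambers also lay below 4.01. It was thus tested only through its shunt arrays, and the size of its difference is uncertain. Whether the difference in 1371033_at lies in the amount of RNA or in the sequence carried by the pooled animals was not tested.

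**Figure D3:**
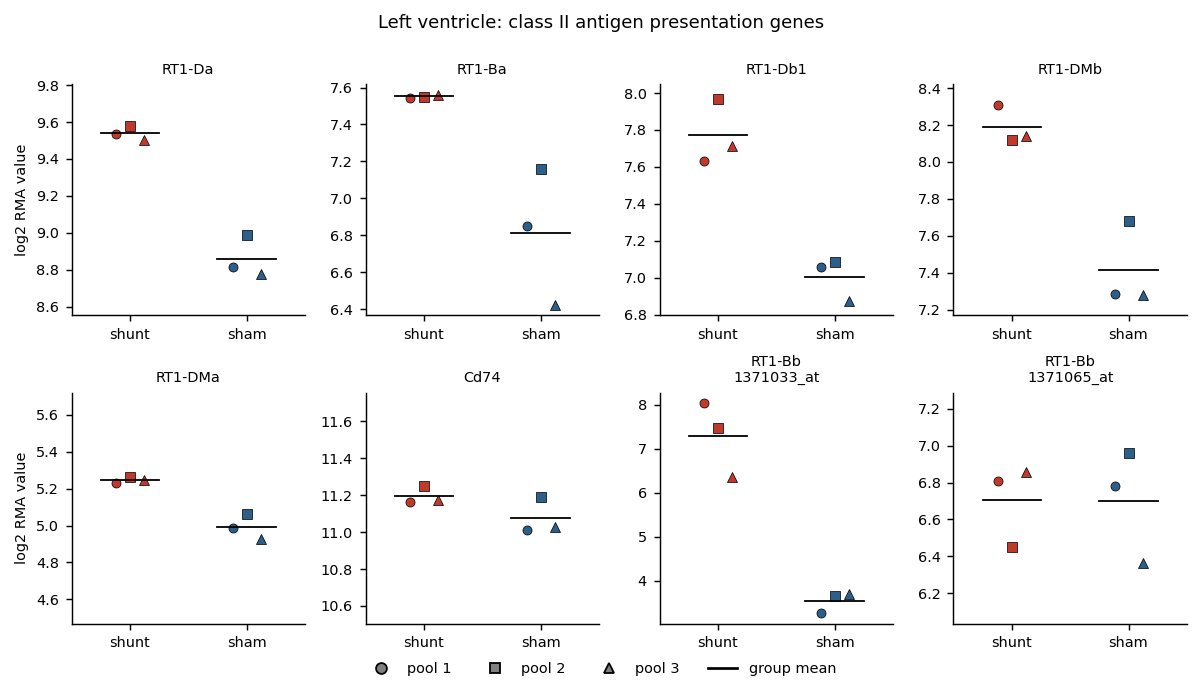
Log2 RMA values (y axis) of class II genes and of both RT1-Bb probe sets in shunt (left, red) and sham (right, blue) ventricles, with a marker shape for each pool and a bar for the group mean. RT1-Da, RT1-Ba, RT1-Db1, RT1-DMb, RT1-DMa and RT1-Bb 1371033_at lie higher in every shunt array, while Cd74 and RT1-Bb 1371065_at overlap, and the y axes differ in range.

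Other immune genes lay mostly above 0 without passing. Of 35 macrophage and myeloid markers, 0 passed, 29 lay above 0, and 14 had shunt arrays all above sham while 0 had the reverse. Over all genes tested, 11.0% were non-overlapping and higher and 10.5% lower. The median of these markers was 0.17, and 0.26 with the hexokinase covariate. Their mean level was 6.27 to 6.48 in shunt and 6.16 to 6.23 in sham ventricles, so their part in the class II result was not tested. Mpeg1, a macrophage pore-forming protein, had 7.55, 7.60 and 7.39 in shunt and 7.15, 6.77 and 6.78 in sham ventricles, a difference of 0.61 ± 0.19 (adjusted p = 0.193). Cybb, the catalytic subunit of the phagocyte oxidase, differed by 0.42 ± 0.15 (adjusted p = 0.242), and Lgals3, galectin-3, by 0.22 ± 0.08 (adjusted p = 0.254). Of 25 chemokines, cytokines and complement genes, 0 passed, 19 lay above 0 and 14 were non-overlapping and higher, with a median of 0.18. The receptor Cxcr4 had 7.40, 7.46 and 7.44 in shunt and 6.89, 6.75 and 7.06 in sham ventricles, a difference of 0.53 ± 0.12 (adjusted p = 0.0949). Ccl2, which draws monocytes into tissue, differed by 0.55 ± 0.14 (adjusted p = 0.127) and the interleukin 6 receptor Il6r by 0.36 ± 0.11 (adjusted p = 0.185). Of 31 class I and interferon genes, 0 passed and 23 lay above 0, with a median of 0.12. Gbp2, an interferon-induced GTPase, differed by 0.34 ± 0.08 (adjusted p = 0.0989), and the transcription factors Irf1 and Irf8 by 0.31 ± 0.08 (adjusted p = 0.139) and 0.29 ± 0.08 (adjusted p = 0.14). Of 28 lymphocyte genes only 7 were measured, with 0 past the threshold and Lck, a T cell kinase, at 0.33 ± 0.11 (adjusted p = 0.216). The others had no probe set under their single name or lay below the filter on low values, and these were not told apart. The filter was set on the mean of all 12 arrays.

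Calcium handling held 3 of the 8 falling genes. Slc24a3 encodes a potassium-dependent sodium-calcium exchanger of the plasma membrane. It had 5.86, 5.60 and 5.72 in shunt ventricles, against 6.54, 6.47 and 6.49 in sham ventricles, and fell by 0.77 (SE 0.09, adjusted p = 0.0119). The atrial difference was -0.77 as well (adjusted p = 0.00286). Cacng6, a gamma subunit of voltage-gated calcium channels, had 4.32, 4.36 and 4.37 in shunt and 5.06, 5.03 and 5.07 in sham ventricles. It fell by 0.70 (SE 0.09, adjusted p = 0.0269), and the lowest sham array lay 0.65 above the highest shunt array, at a low signal. Cacna1c, the pore of the L-type calcium channel that triggers contraction, fell by 0.41 (SE 0.06, adjusted p = 0.0421) in probe set 1370451_a_at, with 5.89, 5.85 and 5.81 in shunt and 6.26, 6.27 and 6.23 in sham ventricles. Its brighter probe set 1370452_at differed by -0.16 ± 0.07 (adjusted p = 0.314), so the fall was called in 1 of its 2 probe sets.

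Of 30 measured calcium genes, 2 passed by their representing probe set and both fell, and 18 lay below 0. Of the 30, 8 were non-overlapping and lower and 2 higher, against 10.5% and 11.0% of all genes. The median was -0.02. Pde3a, a phosphodiesterase that limits cyclic AMP, differed by -0.31 ± 0.10 (adjusted p = 0.205), and the sarcoplasmic calcium pump Atp2a2 by -0.03 ± 0.05 (adjusted p = 0.86) at values of 13.26 to 13.29 in shunt and 13.27 to 13.32 in sham ventricles. Of 28 potassium and sodium channel genes 0 passed, with a median of -0.06 that was -0.0027 without shunt array 1 and -0.03 with the hexokinase covariate. Kcnd2, a subunit of the transient outward current, had 6.68, 6.66 and 6.47 in shunt and 6.85, 7.14 and 6.92 in sham ventricles, a difference of -0.37 ± 0.09 (adjusted p = 0.116). Kcnk2, a stretch-sensitive potassium channel, differed by -0.28 ± 0.10 (adjusted p = 0.228) and the pacemaker channel Hcn4 by -0.23 ± 0.09 (adjusted p = 0.251).

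None of the 24 measured markers of cardiac load passed. Nppa, which encodes atrial natriuretic peptide, had 10.48, 11.99 and 11.04 in shunt ventricles, against 10.11, 9.61 and 10.19 in sham ventricles. The groups did not overlap, but shunt array 1 lay only 0.29 above the highest sham array. The difference of 1.20 ± 0.28 (2.30-fold, 95% interval 0.58 to 1.82) did not pass (adjusted p = 0.105), and it was 0.79 without shunt array 2. Nppb, which encodes B-type natriuretic peptide, had 11.27, 11.61 and 11.35 in shunt and 11.14, 10.54 and 11.14 in sham ventricles, a difference of 0.47 ± 0.15 (adjusted p = 0.21) that was 0.27 without sham array 2. The slow myosin heavy chain gene Myh7 came nearest to passing, with 11.55, 11.82 and 11.39 in shunt and 10.84, 10.43 and 10.55 in sham ventricles. It differed by 0.98 ± 0.18 (1.97-fold, adjusted p = 0.0672), and the lowest shunt array lay 0.54 above the highest sham array. Ankrd1, a stretch-responsive ankyrin repeat protein, differed by 0.26 ± 0.07 (adjusted p = 0.154).

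In Acta1, Ccn2 and Myh6 the groups overlapped. Acta1, skeletal alpha-actin, had 11.58, 12.12 and 12.005 in shunt and 11.92, 11.51 and 11.90 in sham ventricles, a difference of 0.13 ± 0.17 (adjusted p = 0.782). Ccn2, a growth factor of the matrix, differed by 0.08 ± 0.20 (adjusted p = 0.885), and the fast myosin heavy chain Myh6 by -0.03 ± 0.06 (adjusted p = 0.862). The sign of Acta1 turned without sham array 2, and that of Ccn2 without sham array 2 or shunt array 2. Among other members of the list, chosen after their values were seen, Enah, a regulator of actin filaments, had 7.50, 8.06 and 7.77 in shunt and 8.34, 8.04 and 8.40 in sham ventricles, a difference of -0.48 ± 0.15 (adjusted p = 0.185) with overlap. Without overlap, Nmrk2, a kinase of NAD synthesis, differed by -0.22 ± 0.09 (adjusted p = 0.292), the LIM protein Fhl1 by -0.14 ± 0.07 (adjusted p = 0.38) and the secreted Fstl1 by 0.23 ± 0.12 (adjusted p = 0.382). Of the 24 markers 13 lay above 0, with a median of 0.04 that became -0.05 without shunt array 2. Nppa is also an atrial gene. Atrial Myl7 read 5.91, 8.55 and 7.17 in shunt and 6.25, 7.74 and 7.23 in sham ventricles, and the 14 atrial myocyte markers had a mean level of 6.50, 7.09 and 6.72 in shunt pools, against 6.66, 6.86 and 6.87 in sham pools. Their median difference was -0.11, and the part of atrial tissue in the Nppa values was not tested.

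**Figure D4:**
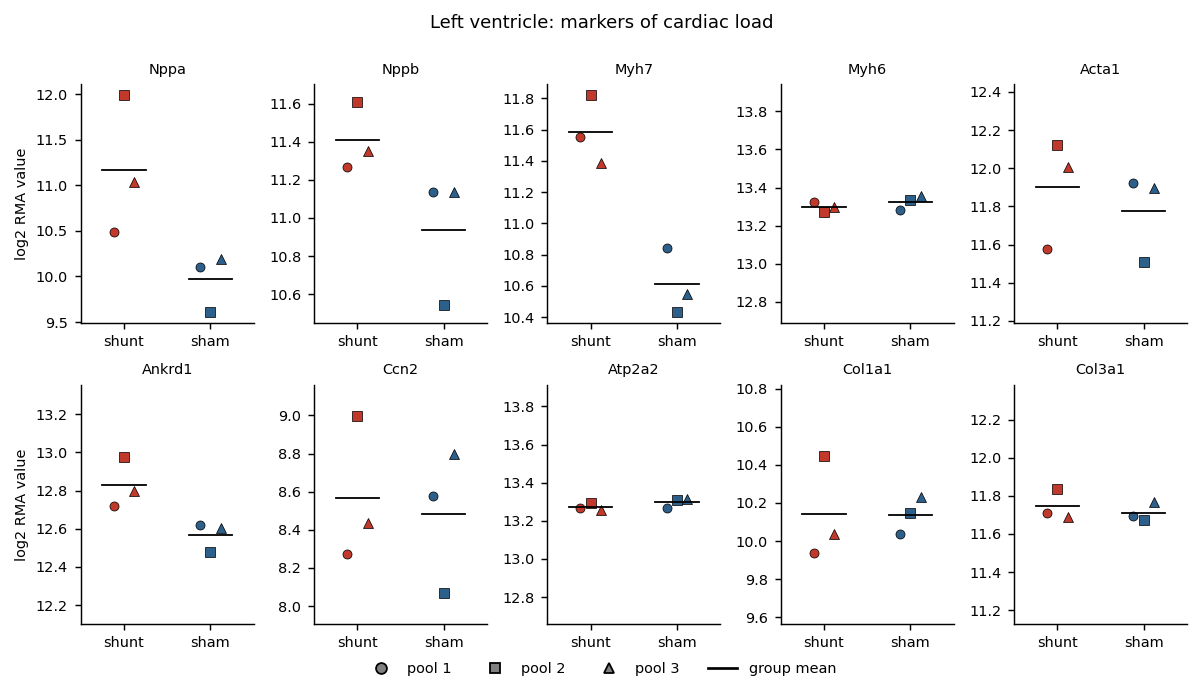
Log2 RMA values (y axis) of 10 markers of cardiac load in shunt (left, red) and sham (right, blue) ventricles, with a marker shape for each pool and a bar for the group mean. Nppa, Nppb, Myh7 and Ankrd1 lie higher in every shunt array, and the other 6 overlap.

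In the contractile apparatus, Myh13, the myosin heavy chain of eye muscles, fell by 0.45 (SE 0.07, adjusted p = 0.0487), with 4.65, 4.59 and 4.66 in shunt and 5.08, 5.03 and 5.15 in sham ventricles. Its signal was low, and it belongs to a family of similar myosin genes, so the transcript behind the signal is uncertain. The same holds for Myh1, whose probe set differed by 0.33 ± 0.06 (adjusted p = 0.0703). Of 32 sarcomere and Z-disc genes, 1 passed, 16 lay above 0 and 16 below, and the median was 0.00. Myot, a Z-disc protein, had 3.86, 3.91 and 3.72 in shunt and 4.67, 4.12 and 4.55 in sham ventricles, a difference of -0.62 ± 0.14 (adjusted p = 0.0929). Its shunt values lay below the filter value of 4.01, so the size is uncertain. Cmya5 differed by -0.28 ± 0.07 (adjusted p = 0.127).

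Metabolic genes held 2 rises and a list that lay mostly below 0. Vnn1, the pantetheinase that splits pantetheine into pantothenate, the precursor of coenzyme A, and cysteamine, had 8.43, 8.41 and 8.54 in shunt ventricles, against 7.88, 7.93 and 7.66 in sham ventricles. It rose by 0.64 ± 0.07 (adjusted p = 0.0119), or 1.56-fold. Of 16 genes of pantetheine and coenzyme A metabolism it was the only one that passed. Pank1, the kinase that starts coenzyme A synthesis, differed by -0.30 ± 0.08 (adjusted p = 0.146) and the phosphodiesterase Enpp1 by 0.34 ± 0.10 (adjusted p = 0.157). Abcg1, a transporter that passes cholesterol to lipoproteins, had 6.29, 6.59 and 6.44 in shunt and 5.65, 5.82 and 5.70 in sham ventricles and rose by 0.72 ± 0.10 (adjusted p = 0.0353). Its other probe set, 1387054_at, differed by 0.18 ± 0.08 (adjusted p = 0.332). Of 23 sterol genes Abcg1 alone passed. Scd2, a fatty acid desaturase, differed by 0.42 ± 0.08 (adjusted p = 0.0794) and the transcription factor Srebf1 by -0.26 ± 0.10 (adjusted p = 0.248).

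Of 43 genes of fatty acid uptake and oxidation, the main fuel pathway of the adult heart, 0 passed and 37 lay below 0. Of the 43, 14 were non-overlapping and lower and 0 higher, against 10.5% and 11.0% of all genes. The median was -0.11, against 0.00 for all genes. The adipocyte markers, 11 measured of 17 and 3 of them also in the fatty acid list, had a median of -0.13 and a mean level of 7.04 to 7.08 in shunt and 7.09 to 7.19 in sham ventricles, with 0 past the threshold. Their part in the fatty acid values was not tested. Ucp2, an inner-membrane carrier, had 8.60, 9.04 and 8.80 in shunt and 9.40, 9.27 and 9.44 in sham ventricles, a difference of -0.56 ± 0.10 (adjusted p = 0.0608). Pdk4, which restrains glucose oxidation, had 9.04, 8.86 and 9.08 in shunt and 9.35, 9.49 and 9.39 in sham ventricles (-0.42 ± 0.08, adjusted p = 0.0672), and the fatty acid transporter Slc27a1 differed by -0.27 ± 0.08 (adjusted p = 0.183). Against the sham mean the list stood at -0.07, -0.18 and -0.06 in shunt pools 1, 2 and 3, and at -0.08 without array 2. Of 30 genes of glucose uptake and glycolysis 0 passed and 23 lay below 0, with a median of -0.05. Pfkp, the platelet form of phosphofructokinase, differed by 0.42 ± 0.10 (adjusted p = 0.111) and the bifunctional regulator Pfkfb2 by -0.47 ± 0.14 (adjusted p = 0.168). Of 42 genes of the respiratory chain and citric acid cycle 0 passed and 28 lay below 0, with a median of -0.02 and differences of -0.16 ± 0.06 in Sdha (adjusted p = 0.217), -0.14 ± 0.06 in Ndufs1 (adjusted p = 0.272) and -0.14 ± 0.06 in Cs (adjusted p = 0.295).

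Stress genes gave 2 calls. Txn2, the thioredoxin of mitochondria, had 8.51, 8.28 and 8.52 in shunt ventricles, against 8.96, 9.004 and 9.08 in sham ventricles, and fell by 0.58 (SE 0.09, adjusted p = 0.0487). It was the only one of 38 redox genes that passed. Catalase, Cat, differed by -0.30 ± 0.10 (adjusted p = 0.204), and the list median was -0.03. Rbm3, an RNA-binding protein induced by cooling, had 8.30, 8.06 and 8.23 in shunt and 7.56, 7.74 and 7.56 in sham ventricles and rose by 0.58 ± 0.09 (adjusted p = 0.0487). Its relative Cirbp had 7.23, 7.25 and 7.28 in shunt and 6.87, 7.11 and 6.91 in sham ventricles, a difference of 0.29 ± 0.09 (adjusted p = 0.175). Of 26 cold-inducible and splicing RNA-binding proteins 1 passed and 19 lay above 0, with a median of 0.09.

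Of 28 heat shock genes and chaperones 0 passed, 22 lay below 0 and 7 were non-overlapping and lower while 0 were higher, with a median of -0.06. Non-overlapping genes were thus 25% of this list, near the 21.4% of all genes tested, of which 10.5% were lower. Hsph1, a large heat shock protein, had 7.91, 8.12 and 7.88 in shunt and 8.40, 8.31 and 8.46 in sham ventricles (-0.42 ± 0.08, adjusted p = 0.0672). Hspa1a, the inducible chaperone, differed by -0.34 ± 0.08 (adjusted p = 0.0949) and its partner Dnajb1 by -0.26 ± 0.08 (adjusted p = 0.193). Of 30 immediate early genes, which are known to respond within minutes, 0 passed, with a median of -0.11. Of the 30, 9 were non-overlapping and lower and 1 higher, against 10.5% and 11.0% of all genes. Nr4a1, an orphan nuclear receptor, had 6.20, 6.21 and 6.08 in shunt and 7.31, 6.999 and 7.20 in sham ventricles, a difference of -1.003 ± 0.26 (adjusted p = 0.125). The error is shared with the atrial arrays, where the sham values were 9.10, 7.71 and 8.19. Dusp1, a phosphatase, differed by -0.21 ± 0.06 (adjusted p = 0.185) and the transcription factor Klf2 by -0.43 ± 0.13 (adjusted p = 0.189). The median of this list was 0.02 with the hexokinase difference as a covariate and -0.05 without shunt array 1. Of 17 clock genes 0 passed, with Cry1 at -0.37 ± 0.09 (adjusted p = 0.125) and Per2 at 0.63 ± 0.19 (adjusted p = 0.176). The sources used here do not give the time of day at which tissue was collected.

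Signalling and growth genes gave 2 calls. Mcf2l, a guanine nucleotide exchange factor, had 7.43, 7.35 and 7.39 in shunt and 6.78, 6.90 and 6.99 in sham ventricles and rose by 0.50 ± 0.08 (adjusted p = 0.0487). Its other probe set differed by 0.25 ± 0.11 (adjusted p = 0.343). Of 32 genes of small GTPase signalling it alone passed, beside Arhgef25 at 0.43 ± 0.10 (adjusted p = 0.11) and the kinase Rock2 at -0.23 ± 0.07 (adjusted p = 0.15). Tpd52l1, a coiled-coil protein linked to cell division, had 8.59, 8.71 and 8.70 in shunt and 9.10, 9.26 and 9.06 in sham ventricles and fell by 0.47 (SE 0.07, adjusted p = 0.0487), as 1 of 37 cell cycle genes. Cdkn1a, a brake on the cell cycle, differed by -0.32 ± 0.11 (adjusted p = 0.231). Of 45 growth factors and receptors 0 passed and 30 lay below 0, with a median of -0.05. Tgfbr1, a receptor of transforming growth factor beta, had 7.25, 7.24 and 7.25 in shunt and 6.98, 6.92 and 6.96 in sham ventricles (0.29 ± 0.06, adjusted p = 0.0794), and Igfbp3, which binds insulin-like growth factors in plasma, differed by -0.59 ± 0.13 (adjusted p = 0.0949).

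Among markers of other cells, Bex1, a small adaptor first described in brain, had 5.42, 5.32 and 5.39 in shunt ventricles, against 4.75, 4.49 and 4.42 in sham ventricles. It rose by 0.82 ± 0.13 (adjusted p = 0.0487), or 1.77-fold. Prph, the intermediate filament of peripheral neurons, had 4.82, 4.996 and 4.99 in shunt and 4.24, 4.37 and 4.28 in sham ventricles (0.64 ± 0.12, adjusted p = 0.0703). The 12 measured nerve and Schwann cell markers had a median of 0.05 and a mean level of 5.51 to 5.57 in shunt and 5.43 to 5.47 in sham ventricles, and only Bex1 passed. Of 21 endothelial markers 0 passed and 16 lay above 0, with a median of 0.09, and Sox18, an endothelial transcription factor, differed by 0.31 ± 0.10 (adjusted p = 0.205). Of 15 smooth muscle and pericyte markers 0 passed and 9 lay above 0, with a median of 0.02. Of these 15 markers 4 were non-overlapping and higher and 3 lower, against 11.0% and 10.5% of all genes. Myh11 differed by -0.31 ± 0.06 (adjusted p = 0.0795). The epicardial factor Wt1 differed by 0.45 ± 0.10 (adjusted p = 0.0841), with 6.31, 6.28 and 6.33 in shunt and 5.88, 5.91 and 5.77 in sham ventricles. It had the highest difference of 9 measured epicardial and mesothelial markers. Of the 9, 0 passed, 6 lay above 0 and 3 below, with a median of 0.14 in ventricle and -0.11 in atrium. Their mean level was low, at 4.19 to 4.31 in shunt and 4.02 to 4.11 in sham ventricles. The ventricular myocyte markers, 17 measured, had a median of 0.00.

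**Figure D5:**
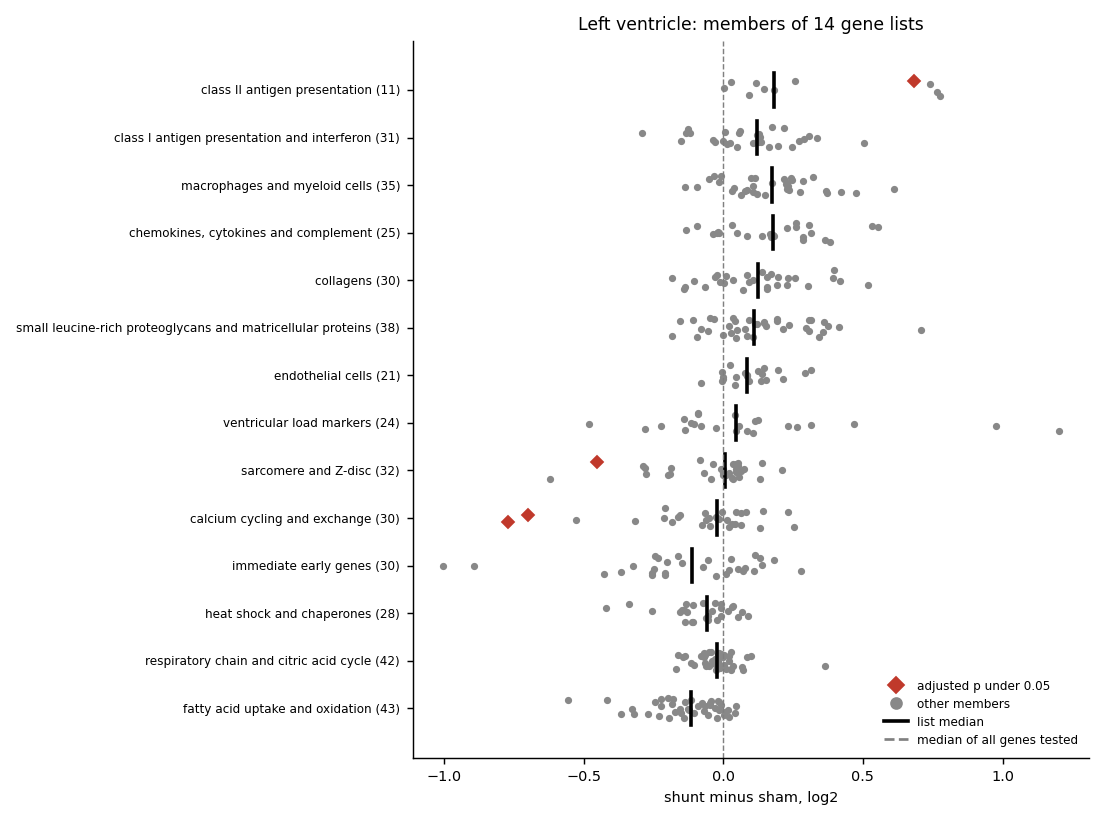
Shunt minus sham differences in left ventricle (x axis, log2) of the measured members of 14 gene lists (rows, with the number measured), with red diamonds for members past the threshold, black bars for list medians and a dashed line for the median of all genes. The class II, macrophage and chemokine medians lie at 0.17 to 0.18 and that of fatty acid oxidation at -0.11.

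The last named gene, Apeg3, a non-coding transcript antisense to the imprinted gene Peg3, fell by 0.66 (SE 0.10, adjusted p = 0.0487) in probe set 1382118_at, with 5.53, 5.67 and 5.78 in shunt and 6.28, 6.32 and 6.36 in sham ventricles. Its other tested probe sets differed by -0.39 ± 0.12 (adjusted p = 0.183) and -0.24 ± 0.13 (adjusted p = 0.431). Of the probe sets without a name here, 1392401_s_at fell by 1.09 (SE 0.17), and 1380768_at and 1390659_at rose by 0.77 ± 0.12 and 0.56 ± 0.07.

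A further 111 genes lay between adjusted p of 0.05 and 0.10, 59 higher and 52 lower, so that 1.16% of all genes lay under 0.10. The 10 of smallest p in each direction, at adjusted p of 0.0528 to 0.0703, are given as values that did not pass. Besides Myh7, Prph and Myh1, the higher ones were Ptgr1, a reductase of prostaglandins and reactive aldehydes, at 0.52 ± 0.09, the centriole protein Cenpj at 0.50 ± 0.09, the channel kinase Trpm7 at 0.44 ± 0.08, Ccnyl1 at 0.44 ± 0.08, the ribosomal protein Rpl39 at 0.34 ± 0.07, the glutamine transporter Slc1a5 at 0.32 ± 0.06 and Jpt1 at 0.29 ± 0.06. Besides Ucp2, Pdk4 and Hsph1, the lower ones were Zfp593 at -0.51 ± 0.09, Nudt4, a hydrolase of inositol pyrophosphates, at -0.47 ± 0.08, Map7, a microtubule-binding protein, at -0.44 ± 0.08, the autophagy kinase Ulk1 at -0.40 ± 0.07, the nucleolar Nolc1 at -0.39 ± 0.07, Gucd1 at -0.35 ± 0.07 and the mitochondrial glutamate carrier Slc25a22 at -0.33 ± 0.06. Ulk1 had 8.07, 8.28 and 8.28 in shunt and 8.61, 8.65 and 8.58 in sham ventricles, and Nolc1 had 6.72, 6.70 and 6.73 in shunt and 7.002, 7.12 and 7.19 in sham ventricles. In neither did the groups overlap.

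Most of the largest differences did not pass. The test statistic grows with the difference, so a higher share of passing among large differences is built into the choice. Of 41 probe sets that differed by 1 or more in size 4 passed, against 0.107% of all tested. Only 9 genes differed by 1 or more by their representing probe set. Of the 8 largest with non-overlapping arrays Wfdc1 alone passed, where 0.113% of all genes passed. Itga1, an integrin that binds collagen, had 8.61, 7.70 and 8.67 in shunt and 7.50, 7.52 and 6.16 in sham ventricles, a difference of 1.27 ± 0.38 (adjusted p = 0.176). Pik3r1, a regulatory subunit of phosphoinositide 3-kinase, differed by 1.15 ± 0.39 (adjusted p = 0.219), and Pilra, a myeloid receptor, by 1.01 ± 0.29 (adjusted p = 0.162). Dnajb6, a chaperone of muscle, differed by -0.94 ± 0.23 (adjusted p = 0.114). In Itga1 and Pik3r1 the spread within sham reached 1.36 and 1.22, which is wider than the difference itself.

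Set against the left atrium, 18 of the 20 probe sets had the same sign there and 7 also passed in that chamber, where 243 of 18625 passed (1.3%). They read Ogn (both probe sets), Slc24a3, Wfdc1, Tpd52l1, Mcf2l and RT1-Da. The exceptions in sign were Bex1, at 0.82 in ventricle and -0.25 in atrium, and Myh13, at -0.45 and 0.06. The test of the difference between the chambers passed for 0 of the 20 (limma adjusted p of 0.232 to 0.998), and for 0 of 18625 probe sets (0.0%), where 6.6% had an unadjusted p under 0.05. None of the 20 is therefore shown to be particular to the ventricle. Of the 205 probe sets at an adjusted p under 0.10, 86.8% had the same sign in the atrium, against 64.7% of all tested.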

How the data were processed

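Expression was measured on 12 one-colour Affymetrix rat arrays, 3 per group, of pools of 2 tissues. The deposited values are log2 values, and per the submitters' processing notes they were made with RMA, with its version not given in the sources used here. Per the labels' protocols, labelled cRNA came from 10 µg of total RNA. The values lie between 2.05 and 14.29 with nearly equal quartiles on all arrays, and no pair of arrays held more than 67 exactly equal values among 31099. The number of arrays limits the precision.

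Of 31042 probe sets that are not controls, the 18625 with a mean over 12 arrays at or above the 40th percentile (4.01) were tested. The functions lmFit and eBayes of limma 3.58.1 (R 4.3.3) fitted a mean for each of the 4 groups to all 12 arrays, which leaves 8 residual degrees of freedom. Two-sided p-values were adjusted over all tested probe sets by Benjamini-Hochberg, and the threshold was 0.05. Differences are shunt minus sham on the log2 scale. Symbols came from the platform annotation, updated by Entrez identifier to GRCr8 for 20758 probe sets, while 68 kept an older name, 436 had several and 9780 none. A gene was represented by its tested probe set of highest mean.

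The members, the 37 gene lists (869 of 1125 genes measured) and the rule for named genes were chosen with earlier results of these data known, so all 12 passing genes are in lists, and lists are described by counts and medians without a test. On data simulated for this comparison, over 18625 probe sets, the fit recovered 62% of 50 changes of 0.5, 88% of 50 of 1 and 100% of 50 of 2, with 7 calls among unchanged probe sets. The simulated noise was independent between probe sets and arrays, with no outlying array. More changes were planted than were called in the real data, which eases the adjustment. These shares need not hold for the real arrays. The labels call the pools biological replicates. Alternatives changed the filter, the scaling, array weights, the prior, the arrays fitted, the replicate block, the hexokinase covariate, the minimum fold, the probe sets per gene and each array left out.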

Additional observations from a re-analysis of the deposited data

Results flagged for a closer look

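A group of 3 probe sets was left out by the filter on low values and is not part of the counts above, yet passed in left ventricle when no filter was set (limma, adjusted p over all probe sets that are not controls). A further RT1-Db1 probe set, 1370382_at, had 3.67, 3.71 and 3.52 in shunt ventricles, against 2.93, 2.80 and 2.77 in sham ventricles, a difference of 0.80 ± 0.11 (adjusted p = 0.0328). Probe set 1383111_at, without a name here, had 5.65, 4.78 and 5.16 in shunt and 3.63, 4.28 and 3.50 in sham ventricles, a difference of 1.39 ± 0.22 (adjusted p = 0.0489). Probe set 1397859_x_at, also without a name here, had 4.26, 4.33 and 4.17 in shunt and 3.40, 3.04 and 3.39 in sham ventricles, a difference of 0.98 ± 0.14 (adjusted p = 0.0409). In each of the 3 the groups did not overlap. All ventricular values of 1370382_at, and the sham means of the other two, lay below the filter value of 4.01, so the sizes are uncertain and nothing is drawn from them about the class II genes.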

How the results depend on the processing

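The 24 probe sets that passed with no filter, 24 with cyclic loess, 21 with array medians centred, 15 with a replicate block over all arrays and 16 with 1 probe set per gene were within 1.5 times the 20 reported. The count of ventricular probe sets was 82 with a filter at the 60th percentile, 38 after quantile normalization, 160 with array weights, 96 with a trended and robust prior, 10 with only ventricular arrays, 215 with the hexokinase covariate, 205 at an adjusted p under 0.10, and 0 with a minimum fold of 1.5 (limma, 21 at an unadjusted p under 0.05). With a replicate block and only ventricular arrays it was 0 (limma, 2528 unadjusted). Same-numbered shunt and sham arrays deviated from their group means with correlations of -0.04, -0.01 and 0.01, so the numbers were not taken as pairs. Same-numbered ventricular and atrial arrays had -0.24, 0.44 and 0.44 in shunt and 0.23, 0.26 and 0.07 in sham. Leaving out 1 array gave 0 to 118. For the difference between the chambers, 0 in the reported fit, the count was 11 with array weights, 1 with the trended prior, the hexokinase covariate, 1 probe set per gene or an adjusted p under 0.10, and 0 to 19 without 1 array. The sign of genes near 0 turned. Ccn2 was -0.0299 with array weights and -0.13 to 0.24 without 1 array. Col1a1 was -0.00796 with medians centred, -0.0563 with array weights and -0.15 to 0.10 without 1 array. Acta1 ranged from -0.0094 to 0.29 and Col3a1 from -0.0105 to 0.0627 without 1 array. The cause was not tested. The 20 passing probe sets kept their call in 186 and lost it in 63 of their other alternatives, and kept it in 85 and lost it in 155 of the fits without 1 array. Of 37 list medians, 26 kept their sign in every alternative and 11 turned in at least 1, among them clock genes, at -0.07 and, with the hexokinase covariate, 0.05. Signal near the lower end of the scale, as in RT1-Bb of sham ventricles, leaves the size of a fold uncertain.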

Other observations

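Some further gene groups had no member past the threshold. Of 28 neurohumoral receptors and hormones 0 passed, with a median of -0.03. Ramp2, a partner of the adrenomedullin receptor, differed by 0.21 ± 0.07 and its ligand Adm by 0.29 ± 0.10 (adjusted p = 0.212 and 0.226), and both had shunt arrays all above the sham arrays. Of 28 genes of protein degradation and growth arrest 0 passed and 20 lay below 0, with a median of -0.06, while Ctsl, a lysosomal protease, differed by 0.21 ± 0.07 (adjusted p = 0.219). The markers of blood cells and skeletal muscle had medians of 0.07 and -0.10, with 0 members past the threshold.

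Large steps on 1 or 2 arrays were seen in probe sets that did not pass, chosen here after their values were seen. Amt, an enzyme of glycine cleavage, had 7.60, 5.13 and 7.99 in sham ventricles 1, 2 and 3, and the atrial sham arrays of the same numbers read 7.99, 5.48 and 7.76. Clec3b, the plasminogen-binding tetranectin, had 4.38, 6.76 and 3.32 in shunt ventricles (1386128_at), against 6.49, 6.86 and 6.67 in sham ventricles, and the atrial shunt arrays read 7.42, 7.56 and 3.73. Shunt array 1 was thus low in the ventricle and not in the atrium. Probe set 1374334_at, without a name here, had 4.58, 8.03 and 4.67 in shunt ventricles, and the atrial shunt arrays read 4.51, 7.02 and 4.07. A step on the same array number in both chambers was thus present for Amt on sham 2, for Clec3b on shunt 3 and for 1374334_at on shunt 2. The sources used here do not say whether equal numbers mark the same animals. Of the 41 probe sets with a difference of 1 or more, 27 higher and 14 lower, 9 had shunt arrays 1 and 3 both at least 1 above shunt array 2. All 9 also had atrial shunt array 3 at least 1 above the other atrial shunt arrays. The hexokinase difference was 1.23 and 1.18 on ventricular shunt arrays 1 and 3 and 1.44 on atrial shunt array 3, against 0.824 on ventricular shunt array 2, and its part in these probe sets was not tested.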
